A study of Mus musculus with 10 samples.

Results

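Nucleic acid sensors are the proteins by which a cell notices RNA or DNA that is foreign or in the wrong compartment. A set of 10 of their genes, listed by name, was followed here in mouse gingival epithelium, the lining of the gum around the teeth. They are Ifih1, Rigi (listed in the deposited table under its older symbol Ddx58), Dhx58, Mavs, Tlr3, Eif2ak2, Zbp1, Cgas, Sting1 and Aim2, which makes 10 of the 49164 genes with values in the table. All 10 passed the filter on low counts. The study separated the epithelium of the buccal side, which faces the cheek, from that of the palatal side, which faces the roof of the mouth, and sequenced polyadenylated RNA from 5 libraries of each. Both groups were loosened with Dispase and lifted off with forceps, and the labels give the side as the single difference between them. The labels used here name no strain, genotype, treatment, age or microbial status. The series' design text speaks of pooled germ-free and specific-pathogen-free samples. Which of these each of the 10 libraries holds is not stated, so microbial status was not compared here.

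RNA sensors divide by where they look. MDA5 (the product of Ifih1) and RIG-I (Rigi) are helicases that bind viral RNA in the cytosol and signal through the mitochondrial adaptor MAVS, whereas TLR3 reads double-stranded RNA in endosomes. On the DNA side, cGAS makes a cyclic dinucleotide that activates STING, and AIM2 assembles an inflammasome. Many of these genes are themselves induced by interferon, through factors that bind the interferon-stimulated response element, and keratinocytes are among the cells known to express them.

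Of the 10 genes, 7 were lower in the palatal epithelium and 1, Aim2, was higher, while Mavs and Sting1 did not pass the test. The RNA sensors and effectors Ifih1, Rigi, Dhx58, Tlr3, Eif2ak2 and Zbp1 had palatal levels 1.98-fold to 4.88-fold below the buccal ones, and the DNA sensor Cgas was 1.53-fold lower. These 7 lower genes stood against 20.3% of all 14062 tested genes lower in palatal, and the 1 higher gene against 18.7% higher. In all, 8 of 10 passed, where 38.9% of the tested genes passed in either direction. The median log2 fold change (palatal minus buccal, as throughout) was -1.10 over the 10 genes and 0.01 over all tested genes. The genes were picked with earlier results of these data known, so these shares are descriptions. The test was edgeR's quasi-likelihood F-test over all genes with Benjamini-Hochberg adjustment at 0.05. Every adjusted p given for a gene is from it, except where another setting is named beside the value. No label ties a library to an animal of its own. The p-values thus rest on the scatter among these 10 libraries, and that scatter could be technical. In bulk RNA, fewer cells of a type and less RNA per cell cannot be told apart.

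Libraries held 25868777 to 37234192 counts, and levels are given as counts per 1000000 (CPM) with TMM-scaled library sizes. The keratinocyte markers were abundant on both sides (12 of 12 tested), summing to 142442 to 159993 CPM in buccal and 107587 to 117441 CPM in palatal libraries, as the epithelial label says. Of these 12, 3 were lower in palatal, among them Krt4 (57984 to 13853 CPM) and Krt13, and 5 were higher, among them Krt10 (4009 to 18347 CPM), Krt14 and Krt6a. Markers of other cells were also present, and some of them differed between the sides. The 6 general leukocyte markers, among them Ptprc, were all lower in palatal, with sums of 40.3 to 68.1 CPM in buccal and 11.7 to 17.9 CPM in palatal libraries. Langerhans and dendritic cell markers (6 of 6 tested lower) summed to 134 to 232 CPM and 41.9 to 60.5 CPM, and T and innate lymphoid markers (8 of 8 tested lower) to 24.3 to 29.4 CPM and 15.1 to 18.0 CPM. The latter sum follows Cd5 (16.3 to 13.4 CPM, 1.22-fold lower). The other tested markers of that list were lower by 2.48-fold to 11.1-fold. Of the monocyte and macrophage markers 4 of 6 tested were lower (Csf1r, Adgre1, Lyz2 and Cd68, by 1.52-fold to 2.48-fold) and 1 higher, Itgam, at 1.63 CPM in buccal and 10.6 CPM in palatal. With Itgam included they summed to 25.3 to 32.1 CPM in buccal and 22.8 to 27.4 CPM in palatal. Neutrophil markers summed to 34.6 to 92.9 CPM in buccal and 19.7 to 48.5 CPM in palatal libraries. That sum follows S100a8 and S100a9, which did not pass, and Cxcr2, the 1 of 3 tested that was lower (10.1 to 3.93 CPM). Csf3r, Retnlg, Mpo and Ly6g were too low to be tested, with means of at most 0.119 CPM on either side. Ly6g had a mean of 0.0122 CPM in buccal and 0 in palatal, which is too low to show a difference or its absence. Of the fibroblast markers, 1 of 4 tested was higher in palatal, Dcn (6.61 to 73.3 CPM), while Col1a1, Col1a2 and Col3a1 did not pass. Their sum, 6.79 to 12.9 CPM in buccal and 70.1 to 89.1 CPM in palatal, follows Dcn. Endothelial (4.60 to 8.31 and 3.22 to 8.01 CPM, 1 of 2 tested lower), B and plasma cell (0.676 to 1.66 and 0.846 to 1.75 CPM, 0 of 1 passed) and melanocyte and Merkel markers (0.450 to 0.864 and 1.02 to 1.48 CPM, 1 of 1 higher, Tyrp1 at 0 in all libraries) were low. The part of these cells in the sensor results was not tested.

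The start regions of the genes were searched for short sets of letters that interferon-activated factors are known to bind. RefSeq promoter windows of build GRCm38.p6, from 250 bases before the start to 50 after it, were at hand for 7 of the 10 genes (Ifih1, Rigi, Mavs, Tlr3, Eif2ak2, Cgas and Aim2; none for Dhx58, Zbp1 and Sting1). Both strands were searched for the core of the interferon-stimulated response element, GAAANNGAA, and for a STAT element, TTCNNNGAA. The former was in the windows of Ifih1, Rigi and Eif2ak2 (3 of 7), against 8.56% of all 32851 windows of that length. The STAT element was in the Eif2ak2 window (1 of 7), against 8.30% of all windows. Mavs, Tlr3, Cgas and Aim2 held neither set of letters, which says nothing of the factors themselves. Looser or other forms of these sites were not searched for, so a window without a match may still hold one. The sequences follow 5′ to 3′ on the gene's strand, with matches in capitals and positions counted from the start site.
The first shows the 250 bases before the start of Ifih1 (chr2:62646256-62646505, minus strand), where the match at -112 to -104 reads as the core on the opposite strand.
Ifih1 upstream: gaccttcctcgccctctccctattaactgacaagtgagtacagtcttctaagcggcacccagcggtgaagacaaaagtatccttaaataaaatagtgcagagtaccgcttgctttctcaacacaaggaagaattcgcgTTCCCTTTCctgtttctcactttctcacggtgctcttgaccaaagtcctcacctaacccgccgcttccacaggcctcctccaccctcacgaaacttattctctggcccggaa
The next lines give the matches just past the start, in Ifih1 (chr2:62646206-62646235, minus strand, match at 33 to 41), in Rigi (chr4:40239804-40239833, minus strand, match at 4 to 12 on the opposite strand) and in Eif2ak2 (chr17:78882533-78882562, minus strand), where the matches at 19 to 27 and 25 to 33 overlap.
Ifih1 start: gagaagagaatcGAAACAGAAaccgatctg
Rigi start: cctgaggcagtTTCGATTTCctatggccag
Eif2ak2 start: tccgccggGAAAACGAAACAGAAgagaacc
The 250 bases before the start of Eif2ak2 (chr17:78882573-78882822, minus strand) hold the STAT element at -178 to -170.
Eif2ak2 upstream: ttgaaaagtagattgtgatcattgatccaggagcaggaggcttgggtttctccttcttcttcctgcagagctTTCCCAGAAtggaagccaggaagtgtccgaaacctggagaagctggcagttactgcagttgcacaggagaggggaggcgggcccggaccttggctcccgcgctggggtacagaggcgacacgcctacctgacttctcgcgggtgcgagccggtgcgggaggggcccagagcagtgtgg
The windows of Tlr3 and Cgas, which were lower in palatal, and of Aim2, which was higher, held no match. Mavs, whose level did not pass the test between the sides, is shown for comparison (chr2:131233813-131234062, plus strand), with no match in its window.
Mavs upstream: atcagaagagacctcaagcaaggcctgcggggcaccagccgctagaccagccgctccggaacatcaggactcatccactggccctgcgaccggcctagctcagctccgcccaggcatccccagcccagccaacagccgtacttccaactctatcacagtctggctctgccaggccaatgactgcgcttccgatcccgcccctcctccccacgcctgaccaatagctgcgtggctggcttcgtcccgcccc

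The cytosolic RNA helicases were all lower in palatal. Ifih1 (ENSMUSG00000026896), which recognises long double-stranded RNA, measured 53.2, 84.5, 70.5, 47.3 and 67.8 CPM in buccal libraries 1 to 5 and 24.0, 26.7, 24.0, 20.7 and 29.6 CPM in palatal libraries 1 to 5. Every palatal library lay below every buccal one. Its means were 64.7 ± 14.7 CPM in buccal and 25.0 ± 3.36 CPM in palatal (SD, n = 5 each), a log2 fold change of -1.37 (SE 0.15, edgeR adjusted p = 7.18e-06), or 2.59-fold lower. Rigi (ENSMUSG00000040296), whose product reads short RNA ends that carry a triphosphate, measured 28.6, 48.9, 38.8, 18.7 and 31.3 CPM in buccal and 15.6, 15.9, 13.9, 11.2 and 15.1 CPM in palatal. The groups did not overlap, although buccal library 4 came close to the palatal range. The Rigi means were 33.2 ± 11.3 and 14.3 ± 1.89 CPM (SD, n = 5 each), a log2 fold change of -1.21 (SE 0.22, edgeR adjusted p = 9.60e-04). Dhx58 (ENSMUSG00000017830) encodes LGP2, a relative that lacks the signalling domains and tunes the other helicases. It measured 18.0, 25.5, 17.8, 11.2 and 19.6 CPM in buccal and 4.21, 7.05, 4.88, 2.79 and 5.74 CPM in palatal, again without overlap. Its fold change was larger than that of the other helicases, at -1.89 on the log2 scale (SE 0.25, edgeR adjusted p = 7.48e-05; 18.4 ± 5.08 against 4.93 ± 1.60 CPM, SD, n = 5 each), although the difference between the genes was not tested.

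Mavs, the adaptor both helicases signal through, was not distinguished between the sides. Mavs (ENSMUSG00000037523) measured 42.7, 41.8, 41.2, 46.7 and 47.6 CPM in buccal and 41.2, 42.3, 39.6, 37.4 and 40.9 CPM in palatal, with overlapping groups. The means were 44.0 ± 2.93 and 40.3 ± 1.87 CPM (SD, n = 5 each), and the log2 fold change was -0.13 (95% interval -0.26 to 0.0082, edgeR adjusted p = 0.130). That interval reaches no further down than -0.26, while the interval of Ifih1 ran from -1.69 to -1.05.

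**Figure D1:**
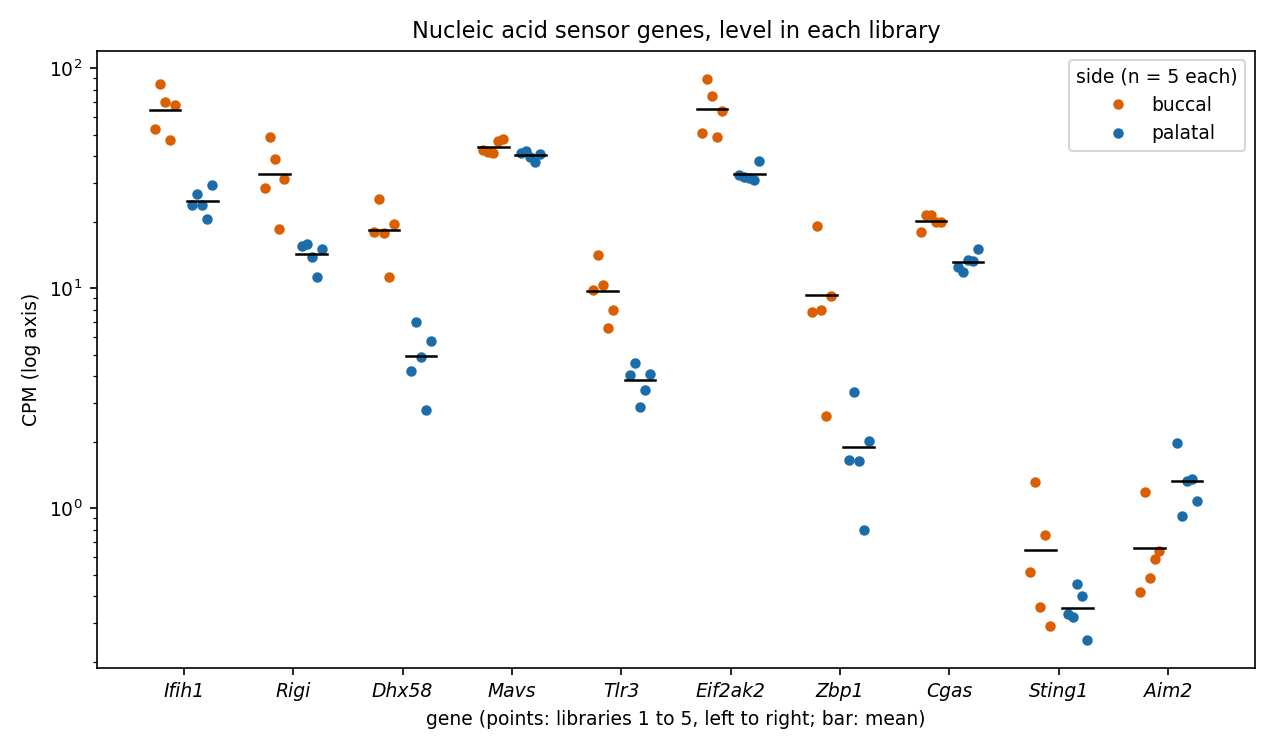
CPM on a log axis of the 10 sensor genes in each of the 5 buccal and 5 palatal libraries (points, libraries 1 to 5 from left to right; bars, means). Ifih1, Rigi, Dhx58, Tlr3, Eif2ak2 and Cgas have all palatal points below all buccal ones, Mavs overlaps, and Aim2 has a higher palatal mean.

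Tlr3 (ENSMUSG00000031639), the endosomal receptor for double-stranded RNA, was lower in palatal. It measured 9.78, 14.2, 10.3, 6.63 and 7.93 CPM in buccal and 4.04, 4.60, 2.88, 3.47 and 4.08 CPM in palatal, with no overlap. The log2 fold change was -1.36 (SE 0.19, edgeR adjusted p = 5.30e-05), from 9.77 ± 2.86 to 3.81 ± 0.658 CPM (SD, n = 5 each).

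The effector genes that bind RNA directly were lower as well. Eif2ak2 (ENSMUSG00000024079) encodes PKR, a kinase that phosphorylates eIF2 alpha and halts translation on meeting double-stranded RNA. It measured 50.6, 89.6, 75.2, 48.8 and 63.8 CPM in buccal and 32.9, 31.9, 31.8, 31.0 and 37.7 CPM in palatal, without overlap, and palatal library 5 stood above the other palatal libraries. The log2 fold change was -0.99 (SE 0.15, edgeR adjusted p = 1.57e-04), from 65.6 ± 17.2 to 33.1 ± 2.69 CPM (SD, n = 5 each). Zbp1 (ENSMUSG00000027514), a receptor of left-handed RNA and DNA that triggers necroptosis, had the lowest palatal-to-buccal ratio of the 10 genes. Its levels were 7.82, 19.2, 7.96, 2.63 and 9.24 CPM in buccal and 1.66, 3.38, 1.64, 0.797 and 2.02 CPM in palatal. The groups overlapped, because buccal library 4 lay under palatal library 2. The log2 fold change was -2.29 (SE 0.53, edgeR adjusted p = 0.00712), a 4.88-fold difference between 9.36 ± 6.04 and 1.90 ± 0.943 CPM (SD, n = 5 each).

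The DNA sensors did not move together. Cgas (ENSMUSG00000032344), the cytosolic DNA sensor, measured 18.1, 21.5, 21.6, 20.1 and 20.1 CPM in buccal and 12.5, 11.9, 13.4, 13.3 and 15.0 CPM in palatal, with no overlap. The replicates were tight, and the log2 fold change was -0.62 (SE 0.08, edgeR adjusted p = 2.37e-05; 20.3 ± 1.41 against 13.2 ± 1.19 CPM, SD, n = 5 each). Sting1 (ENSMUSG00000024349), the adaptor that cGAS activates, was low in both groups, at 100 counts in all in buccal and 53 in palatal. It had 16, 40, 11, 22 and 11 counts in buccal libraries and 10, 10, 16, 10 and 7 in palatal ones, or 0.515, 1.31, 0.354, 0.760 and 0.293 CPM against 0.331, 0.319, 0.451, 0.398 and 0.253 CPM. The groups overlapped and the log2 fold change of -0.85 (95% interval -1.68 to -0.02) did not pass (edgeR adjusted p = 0.0986). Without buccal library 2, which is the highest, the log2 fold change was -0.42 (edgeR adjusted p = 0.331), and without buccal library 5 it was -1.05 and passed (edgeR adjusted p = 0.0357).

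Aim2 (ENSMUSG00000037860), the DNA receptor of an inflammasome, was the member with the opposite direction. It measured 0.418, 1.18, 0.483, 0.587 and 0.639 CPM in buccal and 1.99, 0.925, 1.33, 1.35 and 1.08 CPM in palatal, so that buccal library 2 lay above palatal libraries 2 and 5. It rested on 105 counts in the buccal group and 200 in the palatal. The log2 fold change was 1.01 (SE 0.28, edgeR adjusted p = 0.0110), from 0.662 ± 0.303 to 1.34 ± 0.405 CPM (SD, n = 5 each), which is 2.01-fold higher. The call was lost at a false discovery rate of 0.01 and in a test against a fold of 1.5 (edgeR adjusted p = 0.187).

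**Figure D2:**
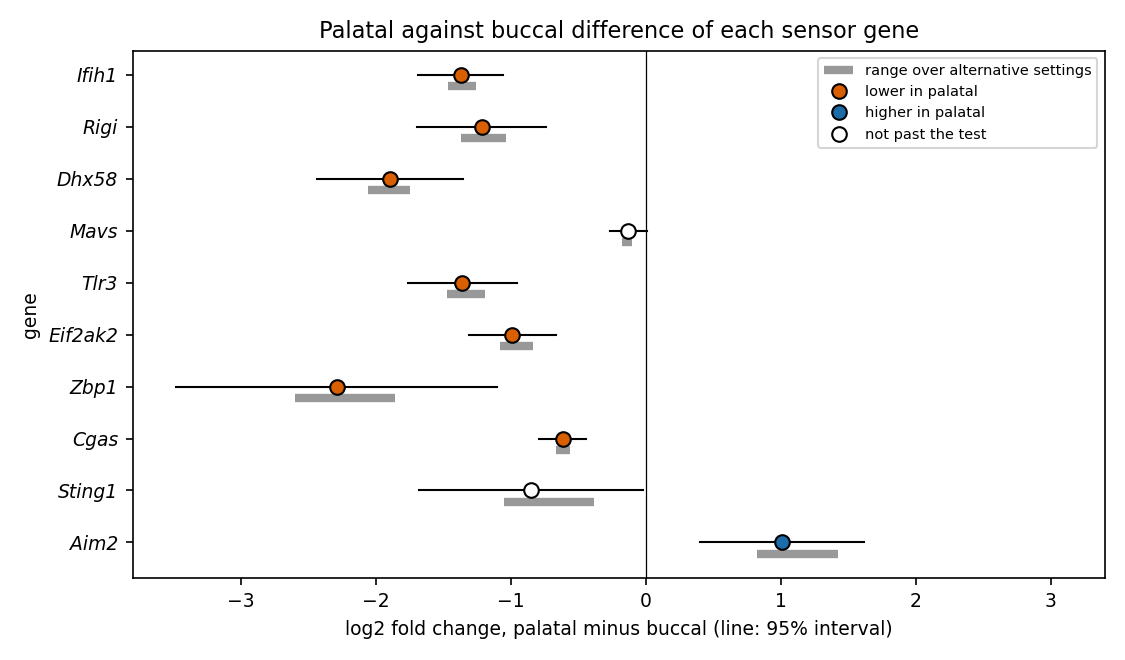
Log2 fold change, palatal minus buccal, of each sensor gene with its 95% interval from edgeR. The intervals of Mavs (-0.26 to 0.0082) and Sting1 (-1.68 to -0.02) end near 0, those of 7 genes lie below 0 and pass the test, and that of Aim2 lies above 0.

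Of the 10 genes, 6 (Ifih1, Rigi, Dhx58, Tlr3, Eif2ak2 and Cgas) had all 5 palatal libraries below all 5 buccal ones, where 14.7% of tested genes did. None had all palatal libraries above, where 13.6% of tested genes did. Within a side, the same libraries tended to be high or low for many of the genes. Buccal library 2 was the highest buccal library for 8 of the 10 genes and buccal library 4 the lowest for 6. Palatal library 2 was the highest palatal library for 5 and palatal library 4 the lowest for 6. Buccal library 2 and palatal library 2 also had the highest summed leukocyte and Langerhans and dendritic cell markers of their sides, and the part of those cells in this spread was not tested. Spread differed greatly between genes. The coefficient of variation was 6.67% in buccal and 4.64% in palatal for Mavs, and 6.96% and 8.96% for Cgas, against 64.5% and 49.7% for Zbp1 and 34.1% and 13.2% for Rigi.

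**Figure D3:**
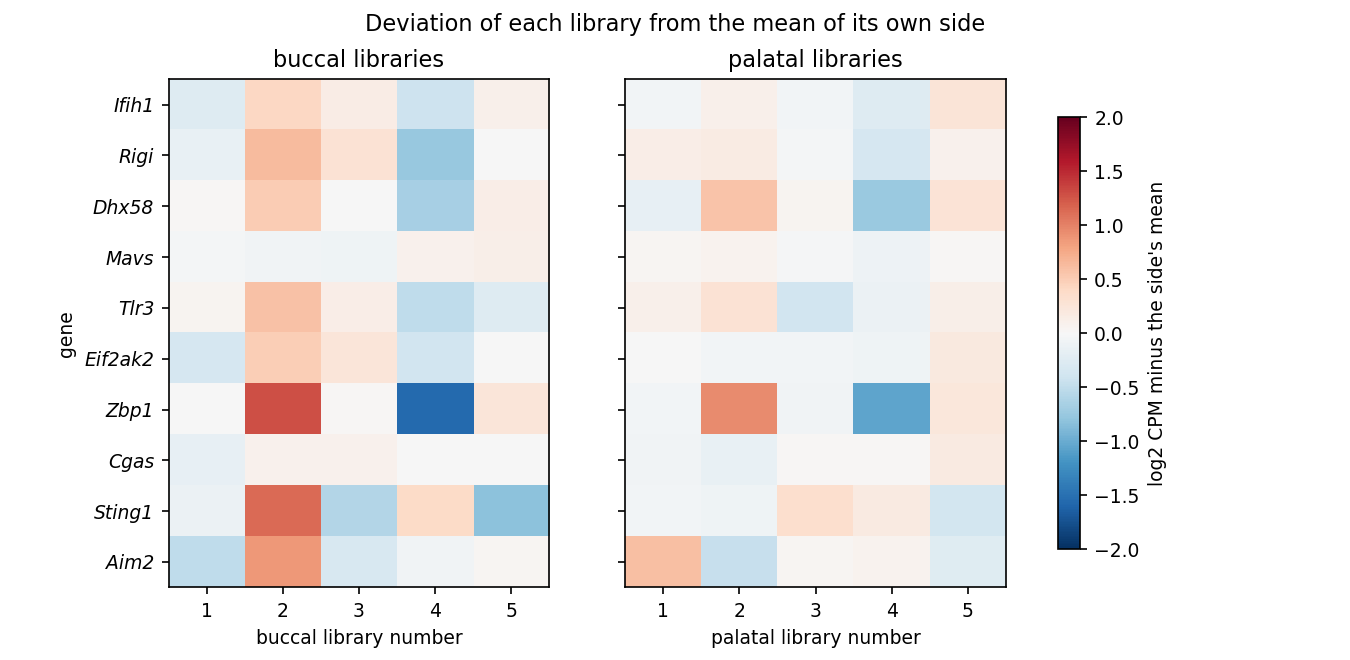
Log2 CPM of each sensor gene in each library minus the mean of its own side, in colour, for buccal libraries (left) and palatal libraries (right). Buccal library 2 is the highest for 8 of 10 genes and palatal library 4 the lowest for 6.

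Per kilobase of exon (GENCODE M21 lengths, build GRCm38), Mavs and Eif2ak2 had the highest buccal levels, at 13.2 and 12.8 CPM per kb. They were followed by Ifih1 at 7.92, Dhx58 at 5.63, Cgas at 4.91, Rigi at 4.72, Zbp1 at 2.65 and Tlr3 at 1.88, and then by Sting1 at 0.236 and Aim2 at 0.189 CPM per kb. In that order, neighbours' library ranges overlapped except between Tlr3 and Sting1. The palatal order was Mavs (12.0), Eif2ak2 (6.47), Cgas (3.20), Ifih1 (3.06), Rigi (2.03), Dhx58 (1.51), Tlr3 (0.732), Zbp1 (0.538), Aim2 (0.381) and Sting1 (0.128 CPM per kb). There Mavs stood apart from Eif2ak2, Eif2ak2 from Cgas, Ifih1 from Rigi and Aim2 from Sting1, and the other neighbours overlapped. Dhx58 thus lay above Cgas in buccal and below it in palatal. No member shared exonic sequence with another gene on its strand, while Dhx58, Tlr3, Eif2ak2 and Cgas shared 4.31%, 7.32%, 4.32% and 4.87% of their length with a gene on the other strand, and the strand setting of the counting is not given in the sources used here.

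For the 3 members with the largest fold changes, the genes whose centred log2 CPM profile over the 10 libraries lay nearest were found among 11573 genes. The likeness includes the difference between the sides and is a description. Nearest to Zbp1 were Gbp3, a guanylate-binding GTPase (root mean square difference 0.242 log2 units), Ifi44 (0.295) and Uba7, the enzyme that activates ISG15 (0.309). Nearest to Dhx58 were Rtp4 (0.108), Lgals9, which encodes galectin-9 (0.158), and Oas1a (0.162). Parp9 (0.0899), Trim12c (0.115) and Trim34a (0.123) lay nearest to Ifih1.

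Lists of the other pathway genes held 188 symbols, of which 155 were tested. Of these 54 were lower in palatal, 11 higher and 90 did not pass, with a median log2 fold change of -0.13. That is a larger share lower than the 20.3% of all tested genes and a smaller share higher than the 18.7%, and the lists were not tested as sets.

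**Figure D4:**
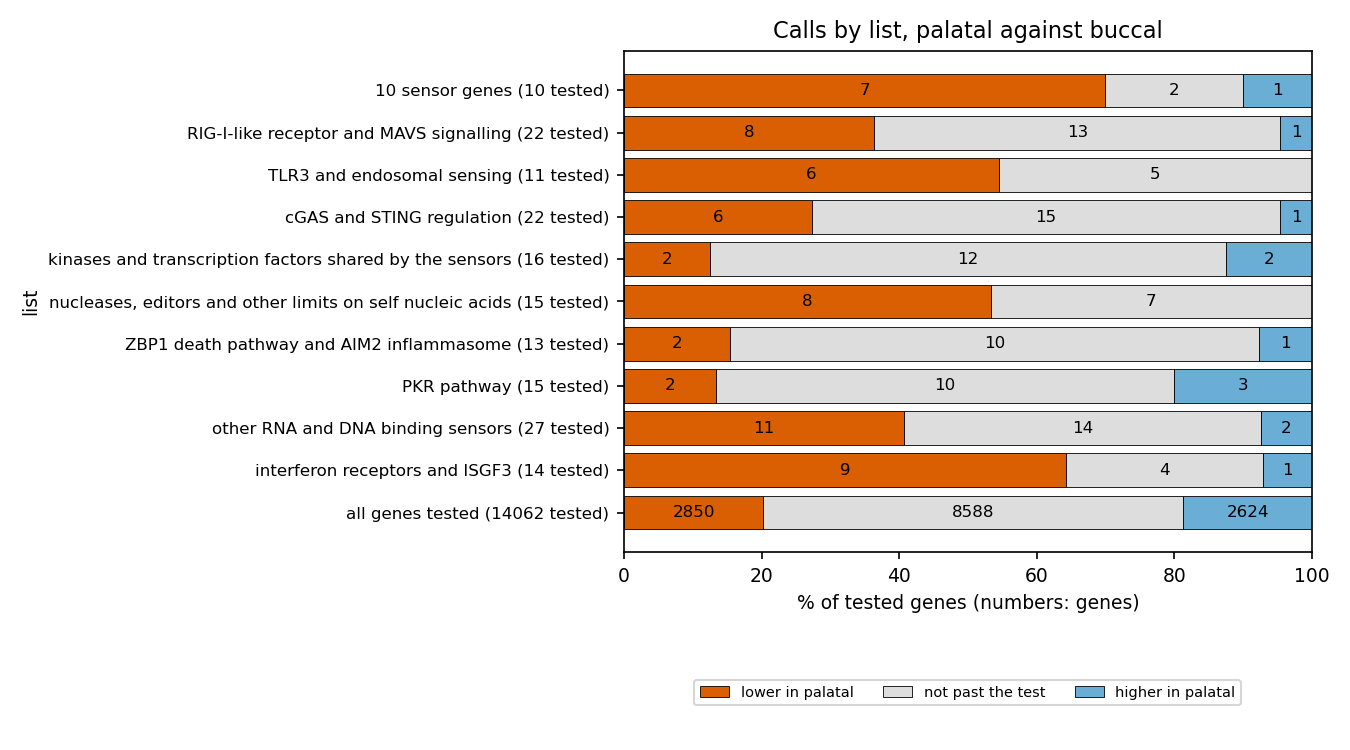
Share of tested genes lower, higher or not passed in palatal against buccal, for the 10 sensor genes, each pathway list and all genes, with the number of genes printed in the bars. The sensor genes have 7 of 10 lower, the list of shared kinases and transcription factors has 2 of 16 lower, and all tested genes have 20.3% lower.

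In the list of RIG-I-like receptor and MAVS signalling, 8 of 22 tested genes were lower and 1 was higher. Over all tested genes the shares were 20.3% and 18.7%, and the difference from them was not tested. Trim25, the ubiquitin ligase known for activating RIG-I, fell by 0.39 on the log2 scale (SE 0.09, edgeR adjusted p = 0.00346; 120.8 ± 15.7 to 92.0 ± 8.84 CPM). Rnf125, a ligase that marks RIG-I for degradation, was lower too, with a log2 fold change of -1.72 (SE 0.32, edgeR adjusted p = 6.29e-04), at only 0.538 CPM in buccal and 0.158 CPM in palatal. Traf3, a ubiquitin ligase downstream of MAVS, had a log2 fold change of -0.37, Traf2 of -0.35 and Traf5 of -0.53 (edgeR adjusted p = 0.00428, 0.00299 and 4.37e-04). Tbkbp1, which binds the kinase TBK1, had one of -1.29 (edgeR adjusted p = 2.45e-04). The higher gene, named after its values were seen, was the deubiquitinase gene Otud5 at 0.18 (edgeR adjusted p = 0.0224).

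Around TLR3, 6 of 11 tested genes were lower and 0 higher, beside 20.3% and 18.7% of all tested genes. The difference from those shares was not tested. Unc93b1, the chaperone that carries the nucleic acid receptors to endosomes, went from 4.97 ± 1.02 to 2.60 ± 0.345 CPM (SD, n = 5 each; log2 fold change -0.93, SE 0.15, edgeR adjusted p = 1.97e-04). The endosomal proteases Lgmn and Ctss, which trim these receptors, had log2 fold changes of -0.42 and -1.59 (edgeR adjusted p = 2.85e-04 and 0.00180), and Tlr13, a receptor for bacterial ribosomal RNA, one of -1.84 (edgeR adjusted p = 4.72e-04). Ctss is also a known gene of antigen-presenting cells, whose markers were lower in palatal as given above. Ticam1, the adaptor TLR3 signals through, measured 13.0 CPM in buccal and 12.2 CPM in palatal and did not pass (log2 fold change -0.09, 95% interval -0.31 to 0.13, edgeR adjusted p = 0.516).

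Of the shared kinases and transcription factors, 2 of 16 were lower and 2 higher, beside 20.3% and 18.7% of all tested genes, and the difference from those shares was not tested. Tbk1, the kinase on which the MAVS, STING and TLR3 routes converge, measured 28.3 ± 2.90 CPM in buccal and 27.5 ± 1.65 CPM in palatal (log2 fold change -0.04, 95% interval -0.21 to 0.13, edgeR adjusted p = 0.715). Irf3, its substrate and the factor that first turns on interferon genes, measured 25.3 ± 3.51 and 26.1 ± 3.48 CPM (log2 fold change 0.05, 95% interval -0.18 to 0.28, edgeR adjusted p = 0.767). The lower genes were Irf7 and Irf1, which are known to be interferon-induced. Irf7 went from 38.9 ± 9.86 to 11.4 ± 6.61 CPM (log2 fold change -1.76, edgeR adjusted p = 0.00340) and Irf1 from 18.9 ± 9.09 to 5.79 ± 1.67 CPM (-1.70, edgeR adjusted p = 0.00117). Tab2 and Ikbkg, adaptors of the NF-kB branch, were higher, with log2 fold changes of 0.50 and 0.20 (edgeR adjusted p = 6.58e-04 and 0.0119).

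Among regulators of cGAS and STING, 6 of 22 tested genes were lower and 1 higher, beside 20.3% and 18.7% of all tested genes. The difference from those shares was not tested. Nlrc3, described as a brake on STING, was higher in palatal, at 3.04 ± 0.471 CPM against 1.02 ± 0.208 CPM (log2 fold change 1.56, SE 0.17, edgeR adjusted p = 4.75e-06). Trim56, a ubiquitin ligase that acts on cGAS and STING, was lower, at 34.8 ± 2.64 against 61.4 ± 9.02 CPM (-0.82, SE 0.09, edgeR adjusted p = 7.92e-06). Surf4, a cargo receptor that returns STING to the endoplasmic reticulum, had a log2 fold change of -0.31 (edgeR adjusted p = 0.00196). The same list holds the PYHIN relatives of Aim2, and their log2 fold changes, -1.79 to -0.37 over the 6 tested, were all of the opposite sign to that of Aim2. Of these 6, grouped after their values were seen, 2 passed, Ifi209 (-1.06, edgeR adjusted p = 8.51e-04) and Ifi207 (-1.39, edgeR adjusted p = 0.00678). How the counting divided reads among such similar genes was not examined.

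Nucleases and editors that keep a cell's own nucleic acids from being sensed had 8 of 15 tested genes lower and 0 higher. Over all tested genes the shares were 20.3% and 18.7%, and the difference from them was not tested. Adar, which edits double-stranded RNA so that MDA5 does not respond to it, went from 55.7 ± 5.58 to 34.9 ± 4.81 CPM (log2 fold change -0.67, SE 0.10, edgeR adjusted p = 7.13e-05). Samhd1, which depletes deoxynucleotides, went from 164 ± 54.5 to 101 ± 7.20 CPM (-0.69, edgeR adjusted p = 0.00832), and Dnase1l3, a secreted DNase, from 12.2 ± 2.28 to 6.12 ± 1.08 CPM (-0.99, edgeR adjusted p = 5.29e-05). Suv39h1, a histone methyltransferase, had a log2 fold change of -0.43 (edgeR adjusted p = 0.0144). Trex1, the main cytosolic DNA exonuclease, was listed at 0 in all 10 libraries. In GENCODE M21 the whole of its exonic length (100%) is shared with Atrip on the same strand, and the part of this in the 0 was not tested.

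The list of the ZBP1 death pathway and the AIM2 inflammasome also holds sensors of other inflammasomes. Of its 13 tested genes, 2 were lower and 1 higher, beside 20.3% and 18.7% of all tested genes. The difference from those shares was not tested. Mlkl, the executor of necroptosis, went from 7.05 ± 3.71 to 2.05 ± 0.383 CPM (log2 fold change -1.77, SE 0.30, edgeR adjusted p = 4.88e-04), and Gsdmd, the pore former of pyroptosis, from 2.41 ± 0.736 to 1.10 ± 0.248 CPM (-1.12, edgeR adjusted p = 9.02e-04). Ripk3, the kinase between ZBP1 and MLKL, measured 3.67 CPM in buccal and 3.13 CPM in palatal (-0.22, 95% interval -0.56 to 0.11, edgeR adjusted p = 0.293). The inflammasome adaptor Pycard and the protease Casp1 were abundant and did not pass, at 203 and 182 CPM (edgeR adjusted p = 0.164) and 92.1 and 83.7 CPM (edgeR adjusted p = 0.143). Ninj1, which ruptures the membrane of dying cells, was higher with a log2 fold change of 0.27 (edgeR adjusted p = 0.0373).

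In the PKR pathway, 2 of 15 genes were lower and 3 higher, all by small amounts. Of all tested genes, 20.3% were lower and 18.7% higher, and the difference from those shares was not tested. Dnajc3, an inhibitor of PKR, and Ddit3, a stress transcription factor, had log2 fold changes of -0.30 and -0.43 (edgeR adjusted p = 0.00630 and 0.0113). The stress granule gene G3bp2 and the translation factor gene Eif2b5 were higher, at 0.25 and 0.19 (edgeR adjusted p = 0.0104 and 0.0303), as was the adaptor gene Nck1, named after its values were seen (0.26, edgeR adjusted p = 0.0401). The other eIF2 alpha kinases, also grouped afterwards, had log2 fold changes of -0.04 to 0.17, and none of the 3 passed.

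Of 27 other RNA and DNA binding sensors tested, 11 were lower and 2 higher, beside 20.3% and 18.7% of all tested genes. The difference from those shares was not tested. The oligoadenylate synthetase family was lower in 6 of 6 genes (log2 fold changes -2.57 to -1.14), a group counted after its values were seen. Its genes here were Oas1a, Oas1b, Oas2, Oas3, Oasl1 and Oasl2. Some of them are similar in sequence, and how reads were divided among them was not examined. Oasl1 went from 14.9 ± 5.85 to 2.46 ± 1.18 CPM (log2 fold change -2.57, SE 0.34, edgeR adjusted p = 1.45e-04) and Oas1a from 26.3 ± 6.25 to 6.98 ± 2.45 CPM (-1.91, edgeR adjusted p = 7.93e-05). Zc3h12a, an RNase that degrades inflammatory transcripts, had a log2 fold change of -0.75 (edgeR adjusted p = 5.17e-04). Lrrfip1, whose product binds double-stranded RNA and DNA, was higher, at 197 ± 13.8 against 116 ± 14.8 CPM (0.77, SE 0.09, edgeR adjusted p = 6.55e-06), and so was the helicase gene Ddx3x, named after its values were seen (0.27, edgeR adjusted p = 0.0240).

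The interferon genes themselves had almost no counts in these libraries. Of 20 type I and type III genes, 15 had 0 counts in every library, and all 20 summed to 7 counts of 156703050 in buccal and 12 counts of 152130869 in palatal. Ifnb1 had 0 counts in buccal and 1 in palatal, and Ifnk, the keratinocyte type I interferon, had 0 in both, which allows up to 3 counts in each group. Ifng, the type II interferon made by lymphocytes, had 28 counts in buccal and 4 in palatal, below the filter for testing. A difference in interferon transcripts was not detectable at this depth for the type I and III genes.

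Interferon receptors and the factors that carry their signal had 9 of 14 genes lower and 1 higher, with a median log2 fold change of -0.60. Over all tested genes the shares were 20.3% and 18.7%, and the difference from them was not tested. Irf9, a DNA-binding factor of the interferon response, went from 63.8 ± 4.28 to 40.4 ± 2.80 CPM (log2 fold change -0.66, SE 0.07, edgeR adjusted p = 2.67e-06). The feedback inhibitor Usp18 and the ubiquitin-like modifier Isg15 had log2 fold changes of -1.90 and -1.85 (edgeR adjusted p = 3.12e-05 and 1.55e-04), and Ifngr2, a receptor chain for interferon gamma, one of -0.67 (edgeR adjusted p = 1.04e-04). The higher gene was the receptor kinase gene Jak1, named after its values were seen (0.18, edgeR adjusted p = 0.0397). Ifnar1, a chain of the type I receptor, likewise named afterwards, measured 24.9 CPM in buccal and 25.6 CPM in palatal and did not pass (log2 fold change 0.04, 95% interval -0.10 to 0.18, edgeR adjusted p = 0.678).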

How the data were processed

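Gingival epithelium was peeled after Dispase, split into buccal and palatal sides and made into stranded polyA libraries read single-end, per the labels' protocols. Build GRCm39 and the tools TopHat2 2.1.1, cutadapt 2.10, DESeq2 1.36.0 and HTSeq 2.01 are listed without roles in the submitters' processing notes. The deposited table holds the authors' raw count for each gene and library, per the file headers, and their DESeq2-normalized values, a signal found to equal each library's counts over a size factor of its own. Of 55414 genes listed, 6250 have no entry in any library and were not used.

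Genes were kept by filterByExpr (minimum count 10), which left 14062, and scaled by TMM. A two-sided quasi-likelihood F-test in edgeR 4.0.16 (under R 4.3.3, with DESeq2 1.42.0 and limma 3.58.1 for the alternatives) compared the 5 palatal with the 5 buccal libraries, with Benjamini-Hochberg adjustment over all tested genes at 0.05. The procedure was tested on simulated data. Log2 CPM used a prior count of 2. Intervals are 95%, from the fit, and the floor of 3 counts covers counting error alone, because no molecular identifiers are named and reads may repeat a molecule. Libraries of a side differed by more than sampling noise (chi-square per degree of freedom 8.29 to 64.0), so none was counted as a repeat sequencing of another. That comparison is with counting noise alone. It cannot tell separate animals from separate preparations of the same animal or pool.

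The members and lists were chosen with earlier results of these data known. Named genes are all 10 members, up to 4 genes of each list with the smallest p, 18 genes fixed by name (1 of them not reported here) and the 3 nearest profiles of 3 members. Of the listed symbols, Dak and Skic2 were not matched. Skic2 is another name of Skiv2l, which was matched and counted once. Dak is an older symbol of Tkfc, and the list was fixed with the older symbol, so that gene was not counted among the pathway genes. Alternatives were other scalings (RLE, upper quartile, library totals), filters (none, at least 1 CPM in 5 libraries), tools (DESeq2, limma-voom, limma-trend on the deposited normalized values), thresholds, the replicate block, and leaving out each library.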

Additional observations from a re-analysis of the deposited data

Results flagged for a closer look

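Among 116 groups of 5 libraries (58 genes on 2 sides), 13 held a library whose gap to its nearest neighbour exceeded Dixon's 95% limit. That limit is passed in about 1 in 20 groups where groups are independent and values normal. These groups share libraries and some, such as those of Trex1, hold only 0 counts, so the 13 cannot be set against that rate. Of the 13, 2 concern the sensor genes. Eif2ak2 measured 37.7 CPM in palatal library 5 against 31 to 32.9 CPM in the other palatal libraries, and Aim2 measured 1.18 CPM in buccal library 2 against 0.418 to 0.639 CPM in the others.

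Library 2 of either side held several of the rest. In buccal library 2, Irf1 measured 34.9 CPM (others 12.5 to 16.6), Mlkl 13.6 CPM (others 4.49 to 6.37) and Casp1 107 CPM (others 86.4 to 89.6). In palatal library 2, Irf1 measured 8.71 CPM (others 4.62 to 5.49), Irf7 22.8 CPM (others 5.7 to 10.2), Gsdmd 1.53 CPM (others 0.931 to 1.08) and G3bp2 69.4 CPM (others 75 to 76.4). The remaining values were Ikbkg at 28.9 CPM in buccal library 1 (others 32 to 33.2), Eif2b5 at 125 CPM in palatal library 4 (others 104 to 109), Pycard at 221 CPM in palatal library 4 (others 169 to 181), and Ifnb1 at 0.0398 CPM in palatal library 4, which is a single count where the others had 0.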

How the results depend on the processing

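The reported counts were 5474 genes past the threshold, 7 sensor genes lower and 1 higher, and 54 pathway genes lower and 11 higher. A test against a fold of 1.5 left 1491 genes, 6 sensor genes lower (Cgas lost, edgeR adjusted p = 0.838) and 0 higher, and 24 pathway genes lower and 1 higher. A false discovery rate of 0.01 left 7 sensor genes lower and 0 higher, and 3 pathway genes higher. Aim2, the sensor gene lost in both, had an unadjusted p of 0.00308 against no change in edgeR. Library totals without TMM gave 5 pathway genes higher and 8 sensor genes lower, the added one being Mavs (log2 fold change -0.17, adjusted p = 0.0471), and no filter gave 6 pathway genes higher. The causes were not tested. Leaving out each library in turn gave 4916 to 5399 genes, 7 to 8 sensor genes lower, 1 higher in each, 50 to 56 pathway genes lower and 6 to 12 higher, with the lowest of the last without buccal library 5.

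No sensor gene changed direction under any setting run. Over these settings the log2 fold changes ranged from -1.47 to -1.26 for Ifih1, -1.36 to -1.04 for Rigi, -2.05 to -1.75 for Dhx58, -1.47 to -1.19 for Tlr3, -1.08 to -0.84 for Eif2ak2, -2.60 to -1.86 for Zbp1, -0.66 to -0.56 for Cgas, -0.17 to -0.10 for Mavs, -1.05 to -0.38 for Sting1 (not tested under the filter of 1 CPM) and 0.83 to 1.42 for Aim2. The median of all genes stayed between -0.04 and 0.02 under the scalings. Sting1 (100 counts in buccal, 53 in palatal) and Aim2 (105 and 200) had the fewest counts of the 10 genes, and no interferon gene reached the filter for testing.

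The labels number the libraries alike on both sides, but same-numbered libraries did not all deviate together (correlations -0.0226 to 0.328), so the numbers were not taken as pairs. With the replicate number as a block, 5518 genes passed, 7 sensor genes were lower and 1 higher, and 56 pathway genes were lower and 12 higher. Under the block the SE shrank for Zbp1 (0.53 to 0.12), Dhx58 (0.25 to 0.08), Rigi (0.22 to 0.13) and Ifih1 (0.15 to 0.09). It rose for Aim2 (0.28 to 0.32, edgeR adjusted p = 0.0324) and Mavs (0.0636 to 0.0666). The labels do not say whether equal numbers share an animal. Of the 5 buccal libraries, 3 correlated best with the palatal library of their own number.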
